A study of Mus musculus with 9 samples.

Results

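The ADAM genes described here were 7 of the 32195 genes in the deposited table of UMI (unique molecular identifier) counts, chosen by name: Adam7 and Adam28, together with Adam9, Adam10, Adam12, Adam15 and Adam17. The table held single-cell RNA sequencing of the caput, corpus and cauda epididymis of untreated C57BL/6 mice (C57BL/6J in the study's methods), for which the labels give no engineered allele, at 42 days of age (P42, 1 pool of 5 mice) and 56 days of age (P56, 2 pools of 5 mice). Each pool gave 1 library per segment, 9 libraries in all, and 1 pool of mice was 1 replicate. P42 therefore had no replicate within a segment, and age could not be told apart from the pool. After quality control 41396 cells remained of 44869 barcodes, with 18844969 to 40628147 UMIs per library, and 143 of the 44631 barcode sequences occurred in more than 1 library.

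ADAM proteins are membrane-anchored proteins built around a metalloprotease domain and a disintegrin domain. The catalytic members act as sheddases, which cut the outer part off other membrane proteins and so release growth factors, cytokines and adhesion molecules, whereas several members lack the catalytic motif. In the epididymis, the duct in which sperm mature after leaving the testis, Adam7 is a noncatalytic member made by principal cells, the secretory cells of the duct lining, and its protein is passed to sperm. Adam28 is a catalytic member that is also known from lymphocytes. Adam10 and Adam17 are broadly used sheddases, known for cutting Notch receptors and tumour necrosis factor, and Adam9, Adam12 and Adam15 are further members, of which Adam12 is known from mesenchymal cells.

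Adam7 (ENSMUSG00000022056) and Adam28 (ENSMUSG00000014725) were neighbours on the minus strand of chromosome 14 (build GRCm38), at chr14:68497336-68533741 and chr14:68606027-68655842. The 72285 bases between them held 1 gene, Adamdec1, which belongs to the same family. The other 5 lay apart, Adam9 at chr8:24949611-25016927, Adam10 at chr9:70678997-70780229, Adam12 at chr7:133883199-134232146, Adam15 at chr3:89338542-89349996 and Adam17 at chr12:21323509-21373632. Genes of the opposite strand overlapped Adam15 (the antisense gene 4731419I09Rik) and Adam17 (Iah1 and Gm22766), and the counting was not stated to use strand, so reads of these partners could not be told apart from theirs. Adam12 overlapped 3 genes of its own strand (Gm23631, Gm19514 and A130023I24Rik), from which strand would not separate its reads.

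RefSeq promoters (GRCm38.p6) matched 3 of the 7 members, Adam10, Adam15 and Adam17. The 250 bases before the start site are shown for Adam10, which was called between segments in principal cells, and for Adam17, which was not, with each GC box (GGGCGG, or CCGCCC on the other strand) in capitals. The first lies at chr9:70678732-70678981 on the plus strand and the second at chr12:21373633-21373882 on the minus strand.
Adam10: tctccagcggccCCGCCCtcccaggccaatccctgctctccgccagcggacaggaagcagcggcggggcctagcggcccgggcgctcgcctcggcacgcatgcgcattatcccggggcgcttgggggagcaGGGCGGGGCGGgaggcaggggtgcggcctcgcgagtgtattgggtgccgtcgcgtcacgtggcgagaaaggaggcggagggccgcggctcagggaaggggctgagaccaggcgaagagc
Adam17: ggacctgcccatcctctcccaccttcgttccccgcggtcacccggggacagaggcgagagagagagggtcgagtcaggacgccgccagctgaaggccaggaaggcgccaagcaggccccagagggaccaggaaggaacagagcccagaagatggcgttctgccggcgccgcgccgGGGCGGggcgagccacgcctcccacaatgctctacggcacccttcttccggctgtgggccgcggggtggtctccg

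Both windows were rich in CpG dinucleotides, with 29 in Adam10 and 23 in Adam17 against a median of 6 over 32851 promoters, and 93.2% of those promoters held fewer than Adam10. The Adam10 window held 3 GC boxes and that of Adam17 held 1, and 32.7% of all promoters held at least 1. The window of Adam15 held 18 CpG dinucleotides and 1 GC box. The 3 windows did not hold TATAAA, the letters of a TATA box, which 12.4% of all promoters held on either strand. Adam7, Adam28, Adam9 and Adam12 had no entry.

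Cells were clustered and named from marker genes, which gave 16776 principal cells, 4687 clear/narrow cells, 3961 fibroblasts, 3687 basal cells, 2898 macrophages/monocytes, 850 sperm, 844 endothelial cells, 689 myoid cells, 467 halo/T cells and 212 ciliated cells, each name standing for cells like that type, while 6325 cells in 6 clusters stayed unnamed (2.62% to 37.0% of a library). The P42 cauda library stood apart. It held 31 principal cells (0.688% of its cells, 56621 UMIs), of which 24 belonged to a cluster otherwise made mostly of caput cells, against 41.8% and 42.5% principal cells in the P56 cauda libraries. It also held 1394 fibroblasts. The P42 corpus lay apart in the same way, with 11.0% principal cells, 35.9% unnamed cells and 14.4% fibroblasts, against 41.5% to 55.9%, 9.09% to 24.0% and 4.81% to 5.86% in the P56 corpus libraries. Counting as principal also the unnamed clusters whose largest marker class was principal gave 1999 principal cells of 4278 in the P42 corpus. The P56 corpus libraries then held 3026 of 4656 and 2900 of 4427, so the 11.0% depends on the naming. The corpus cells added came almost wholly from clusters with 1 or 2 principal markers up, under the 3 that a named cluster needed. Among these, 1 cluster was led by Jchain and Igkc and another by Hmmr and Cenpf. Results that rest on the P42 cauda are given with and without it where that changes them. A corpus age difference cannot be given without the P42 corpus, which is the 1 P42 library of that segment.

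The 7 genes were detected at very different depths. Adam7 had 833138 UMIs and a UMI in 91.9% of kept cells, Adam28 302316 UMIs in 32.9% of cells, and Adam10 18998 UMIs in 29.3% of cells. The other 4 were sparse, with 2179 UMIs for Adam17, 1849 for Adam15, 1200 for Adam9 and 517 for Adam12. Levels are given in UMIs per 1000000 (CPM) of all UMIs of the cells named, which is not divided by gene length.

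Adam28 was high in the caput alone. Summed over all cells, its level in the caput was 2861 CPM in the P42 pool and 3376 and 3208 CPM in the P56 pools. In the corpus the same pools gave 7.21, 4.47 and 1.57 CPM, and in the cauda 8.86, 2.01 and 1.99 CPM. The caput libraries did not overlap with the others, and the caput level was 397, 755 and 2045 times that of the corpus and 323, 1676 and 1609 times that of the cauda in the 3 pools. In edgeR's quasi-likelihood test with the pool as a block, the log2 change was -9.61 ± 0.62 (SE) from caput to corpus (adjusted p = 0.000196, n = 3 pools) and -9.68 ± 0.63 from caput to cauda (adjusted p = 0.000193), and -0.07 ± 0.46 from corpus to cauda (adjusted p = 0.957). Of all genes tested, 15.8% and 20.5% were called from caput to corpus and from caput to cauda. A sum over all cells does not tell more cells that make a gene from more of its RNA per cell.

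Adam7 was present in every segment. Its level over all cells was 3786, 5747 and 4908 CPM in the caput, 1220, 2442 and 2393 CPM in the corpus and 528, 2503 and 3032 CPM in the cauda, in the order P42, first P56 pool, second P56 pool. The caput libraries were all above the others, by 3.10, 2.35 and 2.05 times over the corpus and by 7.17, 2.30 and 1.62 times over the cauda of the same pool. Adam7 was nevertheless not called between segments (edgeR F test over the 3 segments, adjusted p = 0.105, with log2 changes of -1.22 ± 0.47 to the corpus and -1.29 ± 0.48 to the cauda). Without the P42 cauda library it was called, with a log2 difference of 1.20 over the segments (adjusted p = 0.0106), and without the whole P42 pool the difference was 0.93 (adjusted p = 0.00883), under the required change.

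Adam10 was also higher in the caput, by a smaller factor. Its level over all cells was 131, 88.6 and 107 CPM in the caput, 71.7, 51.2 and 42.8 CPM in the corpus and 63.0, 40.3 and 55.2 CPM in the cauda. The ranges of caput and corpus or cauda did not overlap, with a log2 change of -0.83 ± 0.17 to the corpus and -0.80 ± 0.17 to the cauda (F test, adjusted p = 0.0134), which missed the required log2 change of 1 for a call.

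The remaining members were not called between segments in all cells by the edgeR F test. Adam9 was at 7.36, 3.90 and 3.80 CPM in the caput, 3.32, 3.40 and 2.49 CPM in the corpus and 16.9, 2.52 and 2.61 CPM in the cauda (adjusted p = 0.453). Adam15 was between 2.57 and 12.0 CPM in 8 libraries and at 31.8 CPM in the P42 cauda (adjusted p = 0.708), and Adam17 was between 4.14 and 12.8 CPM in 8 libraries and at 20.4 CPM in the P42 cauda (adjusted p = 0.526). Adam12 was at most 4.26 CPM outside the P42 cauda, where it was at 20.6 CPM (adjusted p = 0.124). With no filter on low counts it was called, highest in the cauda (adjusted p = 0.0428), and DESeq2 called it from caput to cauda (log2 change of 2.68, adjusted p = 0.0201). Without that library Adam12 was called, highest in the corpus (adjusted p = 0.00938). The P42 cauda library thus held the highest value of Adam9, Adam12, Adam15 and Adam17, and the lowest of Adam7.

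In all, edgeR called 1 of the 7 members between segments in all cells, where it called 24.6% of the 19667 genes tested and 11.4% with their highest level in the caput. DESeq2 called 2 of the 7 in the same comparison, and Adam12 was not among them. The 24.6% belongs to edgeR, so the DESeq2 count cannot be set against it. The median of the fitted difference, taken from the lowest to the highest segment, was 0.83 (log2) over the 7 members and 0.85 over all genes tested.

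**Figure D1:**
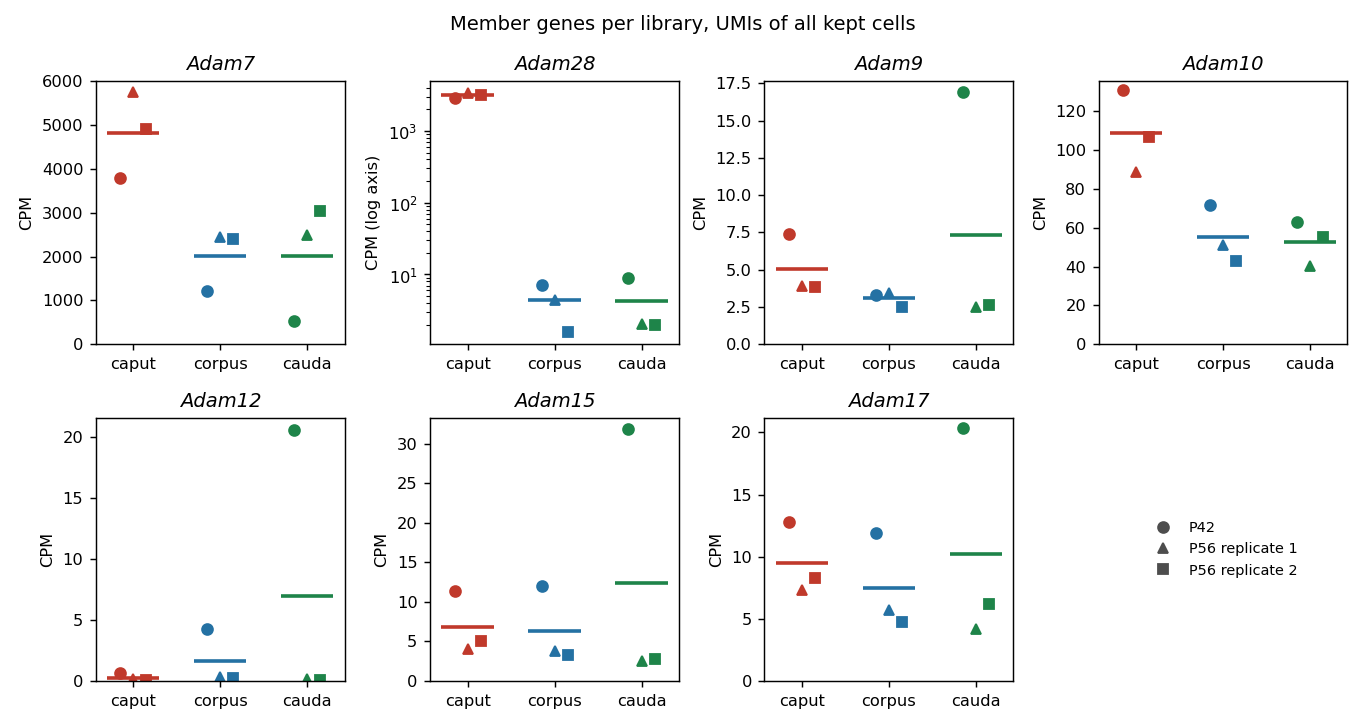
Level of each of the 7 members over all cells, in CPM (log axis for Adam28, linear axes for the others), by segment, with 1 point per library, a shape per pool and a line at the mean of the 3 libraries. Adam28 sits between 2861 and 3376 CPM in the caput and between 1.57 and 8.86 CPM in the other segments, and Adam9, Adam12, Adam15 and Adam17 have their highest point in the P42 cauda library.

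The comparison within principal cells asked whether the same differences held in the secretory cells alone. For Adam28 the caput principal cells gave 3869, 3440 and 3392 CPM, and the corpus principal cells 10.7, 3.89 and 0.890 CPM (log2 change of -10.26 ± 1.29, adjusted p = 7.78e-05, edgeR, n = 3 pools). In the cauda the P56 pools gave 1.79 and 1.12 CPM, and the 31 principal cells of the P42 pool 265 CPM, which was 15 UMIs (log2 change from the caput of -9.14 ± 1.37, adjusted p = 0.000292). Counting as principal also the unnamed clusters whose largest marker class was principal, which left out most of the 1667 unnamed cells of that library, gave 199 such cells there and 39.6 CPM of Adam28.

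Adam7 in principal cells was 5420, 6434 and 5815 CPM in the caput, 1797, 2813 and 2853 CPM in the corpus and 1095, 3280 and 3692 CPM in the cauda. The order of segments differed between the ages, since the cauda lay below the corpus at P42 and above it in both P56 pools. The P42 cauda value was 62 UMIs in 31 cells. With cells gated one by one from their own marker counts, the P42 cauda (2381 CPM, 26 cells) lay above the P42 corpus (1917 CPM). Adam7 was not called between segments in principal cells by edgeR (F test, adjusted p = 0.145), and was called without the P42 cauda library (log2 difference of 1.22, adjusted p = 0.00855), where the caput remained highest. Without the whole P42 pool the difference was 0.97 (adjusted p = 0.00402), under the required change.

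Adam10 was called in principal cells, at 105, 77.1 and 96.3 CPM in the caput, 49.6, 36.7 and 31.9 CPM in the corpus and 17.7 (1 UMI), 30.3 and 43.9 CPM in the cauda. The log2 change was -1.18 ± 0.23 to the corpus (adjusted p = 0.00195) and -0.98 ± 0.26 to the cauda (adjusted p = 0.011). The call was lost without the first P56 pool (adjusted p = 0.0879). Adam9, Adam15 and Adam17 were not called (adjusted p = 0.184, 0.209 and 0.562), and Adam12 was too sparse to be tested. Thus edgeR called 2 of the 6 members tested in principal cells, both highest in the caput, against 37.1% of the 15970 genes tested and 16.3% called highest in the caput (26.2% from caput to corpus and 28.3% from caput to cauda). DESeq2 called 3 of the 6 between segments, a count that cannot be set against the 37.1% of edgeR.

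Per cell, detection followed the levels. With each cell thinned to 1000 UMIs, Adam7 was found in 98.8% ± 0.396 (SD, n = 3 libraries) of caput principal cells, 84.3% ± 8.58 of corpus and 83.2% ± 19.5 of cauda principal cells. The cauda mean holds the P42 library, with Adam7 in 17 of 28 cells. In the P56 cauda it was found in 1883 of 2022 and 1971 of 2061 cells, a larger share than in the P56 corpus (2296 of 2588 and 1651 of 1839). Adam28 was found in 73.1% ± 4.08 of caput and 0.661% ± 0.568 of corpus principal cells. Without thinning the caput shares were 99.96% and 94.8%. Both genes were found together in 73.6%, 76.1% and 67.9% of the thinned principal cells of the 3 caput libraries, and since nearly all of these cells held Adam7, this share says little on whether the genes go together. Shares of this kind are not specific to principal cells: thinned caput macrophages/monocytes held Adam7 in 87.7% and Adam28 in 80.5% of cells.

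Levels outside principal cells were therefore set beside those of secreted principal cell genes. In the caput, basal cells held 24.1% of the principal cell level of Adam7 and 23.0% of that of Adam28, and clear/narrow cells 29.9% and 29.96%. A panel of 8 secreted principal cell genes (Gpx5, Lcn5, Lcn8, Lcn9, Crisp1, Rnase10, Cst8 and Cst11), measured in the same way, had medians of 24.5% and 29.9% in the same populations. In sperm the values were 52.0% for Adam7, 49.9% for Adam28 and 55.0% for the panel. Adam7 and Adam28 in these 3 populations thus lay near the median of the panel, and whether they were transcribed there was not tested.

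The other 6 caput populations held 47.2% to 77.3% of the principal level of Adam7 and 62.7% to 118% of that of Adam28. Macrophages/monocytes held 71.2% of the principal level of Adam7 and 111% of that of Adam28 against a panel median of 93.5% (range over the panel of 23.3% to 106%), and halo/T cells 77.3% and 118% against 106% (27.0% to 116%). Fibroblasts held 65.6% and 86.3% against 80.3%, myoid cells 66.2% and 85.1% against 79.3%, endothelial cells 52.6% and 65.3% against 61.4%, and ciliated cells 47.2% and 62.7% against 60.4%. In these 6 populations Adam28 was above the panel median and Adam7 below it. Adam28 lay above the highest panel gene in macrophages/monocytes and halo/T cells, where its values over the 3 caput libraries ran from 75.7% to 143% and from 89.8% to 150%, and narrowly in endothelial cells (65.3% against 65.2%) and myoid cells (85.1% against 84.9%). Whether Adam28 was made there was not tested.

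**Figure D2:**
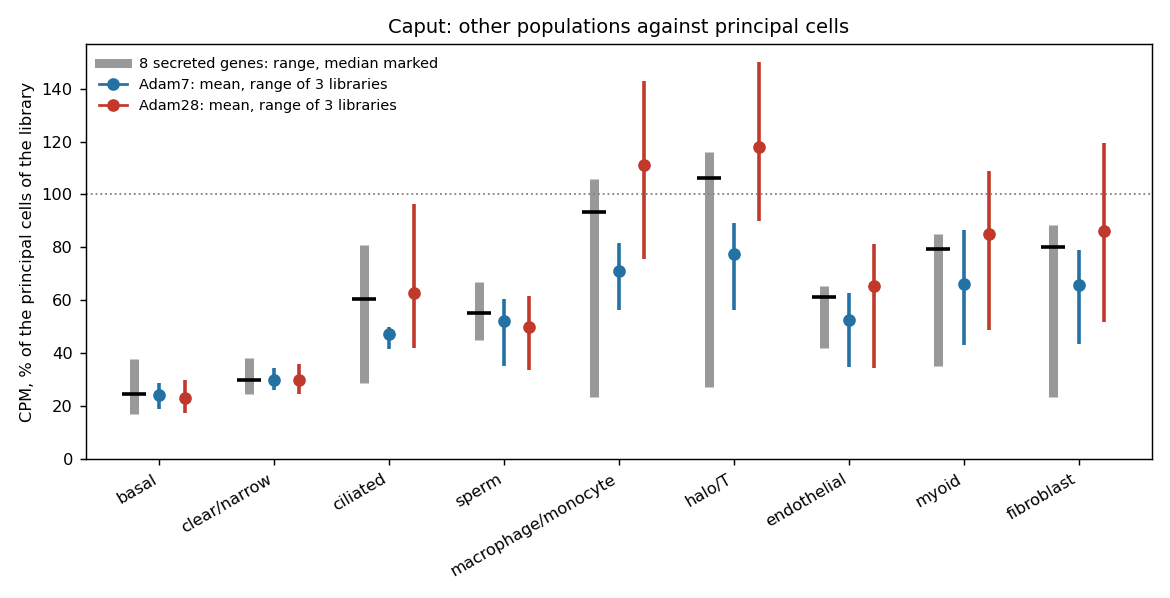
Level in each other caput population as a percent of the level in principal cells of the same library, for Adam7, Adam28 and the 8 secreted genes, with points at the mean and lines over the range of the 3 caput libraries, and a grey bar over the range of the 8 secreted genes with their median marked. Adam7 and Adam28 lie within the spread of the secreted genes in basal cells, clear/narrow cells and sperm, and Adam28 reaches 111% in macrophages/monocytes and 118% in halo/T cells.

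The segment difference of Adam28 was seen in every population tested, with fitted log2 differences of 7.15 in basal cells, 7.93 in sperm, 8.27 in clear/narrow cells, 9.10 in myoid cells, 9.40 in endothelial cells, 9.52 in fibroblasts, 9.86 in macrophages/monocytes and 9.87 in halo/T cells (largest adjusted p = 4.22e-06, edgeR). In the same order, 15.5%, 30.8%, 14.1%, 9.70%, 9.35%, 10.7%, 12.9% and 15.8% of all genes tested were called. In these caput populations the secreted panel had medians of 24.5% (basal cells) to 106% (halo/T cells) of the principal level. RNA shared within a library would carry the caput difference into each population, so these 8 tests are not separate results. Whether Adam28 was made in these populations was not tested. Adam7 was called in 3 of the 8, endothelial cells (adjusted p = 0.0447), halo/T cells (0.00964) and myoid cells (0.0401). Adam10 was called in 1, macrophages/monocytes, with a log2 difference of 1.19 (adjusted p = 0.0355). Principal cells held 71.8% of all caput UMIs of Adam7 and 65.1% of those of Adam28, against 58.3% of all caput UMIs. Left out were unnamed clusters of 425 and 387 caput cells with 14 principal markers up, beside 5 basal and 7 clear/narrow markers. With the unnamed clusters whose largest marker class was principal counted as principal, Adam28 was at 3912, 3617 and 3500 CPM in caput principal cells.

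Within caput principal cells Adam28 split the clusters named principal, and Adam7 did not follow the split. In the P42 caput the cluster led by Aldh1l1, Trpm6 and Tecta held 7363 CPM of Adam28 and the cluster led by Cst12, Teddm2 and Lcn8 4279 CPM. The clusters led by Wfdc18 and Defb18, by Lypd8 and Ppy, and by Ntsr2, Rnase13 and Lcn5 held 972, 933 and 802 CPM. The first P56 caput gave 5801 CPM in the Cst12 cluster against 967 CPM in the Lypd8 cluster and 995 CPM in the Ntsr2 cluster. The second gave 6206 CPM in a Cst12, Tecta and Clec18a cluster and 5615 CPM in the first Cst12 cluster, against 1092 and 720 CPM. Among clusters with at least 50 cells in a caput library, the lowest of the high ones was at 4279 CPM and the highest of the low ones at 1092 CPM. Caput cells of 2 further clusters, 12 and 11 cells, lay between them, at 2719 and 3632 CPM.

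Adam7 was spread over the same clusters in another order. Its level in the Lypd8 cluster was 5283, 7813 and 7456 CPM, the highest of the clusters in both P56 libraries, and that in the Ntsr2 cluster, 3611, 5137 and 4919 CPM, was the lowest in all 3 among clusters with at least 50 cells. These clusters were formed on the same cells, though without genes whose names start with Adam. Adam28 was itself among the leading genes of the Cst12, Tecta and Clec18a cluster, so the values are a description. The clusters led by Aldh1l1, by Wfdc18 and by Cst12, Tecta and Clec18a came almost wholly from 1 library each. The low Adam28 levels of 720 to 1092 CPM were close to those of caput basal cells (835, 1030 and 592 CPM) and clear/narrow cells (953, 1241 and 990 CPM) in the same libraries.

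In the corpus and cauda Adam7 also varied by cluster. The corpus cluster led by Spag11a, Defb21 and Lcn5 held 3100 to 3560 CPM, the largest corpus cluster, led by Defb26 and Defb22, 1805 CPM in the P42 corpus and 2934 CPM in the first P56 corpus, and the cluster led by Spint4 and Spint5 1056, 1611 and 1706 CPM in the 3 corpus libraries. In corpus clusters with at least 50 cells in a library Adam28 stayed at 0 to 5.76 CPM. The corpus cells of the Cst12 cluster, 20 in the P42 corpus and 17 in the first P56 corpus, held 184 and 146 CPM.

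**Figure D3:**
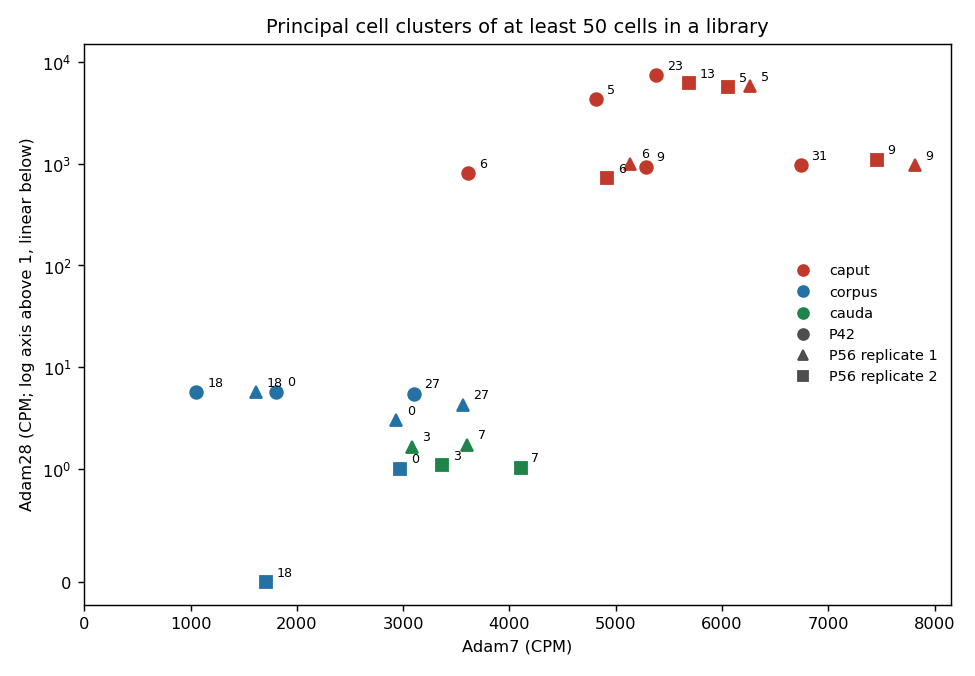
Level of Adam28 (vertical, log axis above 1 CPM) against Adam7 (horizontal) in each principal cell cluster and library with at least 50 cells, in CPM, with a colour per segment, a shape per pool and the cluster number beside each point. The caput clusters fall at 720 to 1092 CPM or at 4279 to 7363 CPM of Adam28, while their Adam7 lies between 3611 and 7813 CPM.

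The genes whose levels followed Adam28 most closely over 83 sums of 1 library and population each, among 7782 genes with a mean of at least 10 CPM, were Lcn8 (Pearson r = 0.988 on log2(CPM + 1)), Spag11b (0.985), Teddm1a (0.983), Cst8 (0.983) and Cstdc2 (0.981). For Adam7 they were Manf (0.885), Tmbim4 (0.833), Creld2 (0.826), Pdia6 (0.824) and Hsp90b1 (0.823). The sums of 1 library share their free RNA and depth. Lcn8 encodes a secreted lipocalin and Cst8 a secreted cystatin, whereas Pdia6 and Hsp90b1 encode protein folding factors of the endoplasmic reticulum.

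Adam7 had its highest mean level in principal cells, and Adam28 in ciliated cells (2208 CPM, against 1220 CPM in principal cells). Ciliated cells were found in the 3 caput libraries only, and were above principal cells for Adam28 in 0 of 3. Each of the other 5 members had its highest mean level outside principal cells. Adam10 was highest in endothelial cells and clear/narrow cells, the acid-secreting cells of the duct lining, both with a mean of 163 CPM over the 9 libraries, and was above principal cells in 9 of 9 libraries in each. Its range was 66.0 to 224 CPM in endothelial cells and 78.5 to 247 CPM in clear/narrow cells, so these did not differ beyond their spread, and clear/narrow cells were above macrophages/monocytes (mean 85.4 CPM), the next in order, in 9 of 9 libraries. Principal cells had the lowest mean, 54.3 CPM, although within a library sperm were above them in only 3 of 8 and ciliated cells in only 1 of 3. In clear/narrow cells Adam10 was 247, 211 and 246 CPM in the caput, 161, 116 and 97.4 CPM in the corpus and 219, 78.5 and 92.5 CPM in the cauda (F test adjusted p = 0.0321, log2 difference of 0.69, not called).

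Adam15 was highest in endothelial cells. Their level was 12.1 to 78.0 CPM (median 18.0 CPM), above macrophages/monocytes in 9 of 9 libraries, and macrophages/monocytes had 4.06 to 53.8 CPM (median 8.73 CPM). Fibroblasts had 3.07 to 33.2 CPM (median 7.30 CPM), and all 3 populations were above principal cells in 9 of 9 libraries. The endothelial values rest on 2 to 105 UMIs of Adam15 per library.

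Adam12 was found mainly in fibroblasts. Its fibroblast level was 5.12 CPM in the P42 caput, 24.6 CPM in the P42 corpus and 33.5 CPM in the P42 cauda (9, 69 and 248 UMIs), against 0 to 5.71 CPM in the 6 P56 libraries (0 to 6 UMIs). Principal cells gave 70.6 CPM in the P42 cauda, which was 4 UMIs in 31 cells, and 6 UMIs in the other 8 libraries together. The P42 corpus and cauda thus stood above every P56 library, while the P42 caput lay within their range. Fibroblasts of the P42 cauda also held 33.2 CPM of Adam15, 22.7 CPM of Adam17 and 18.1 CPM of Adam9, against at most 8.01, 8.60 and 8.56 CPM at P56. In the same library Adam12 was at 24.8 CPM in halo/T cells and 15.0 CPM in macrophages/monocytes, and at 0 in both populations of every P56 library. Gated by their own marker counts, over all libraries, 151 of the 467 cells named halo/T passed as fibroblasts and 85 as halo/T cells, and 408 of the 2898 macrophages/monocytes passed as fibroblasts. Cells of other populations passed as fibroblasts too, among them 125 of the 689 myoid, 116 of the 850 sperm and 344 of the 3687 basal cells. Of the 16776 principal cells 8001 passed as principal, 767 as fibroblasts, and 6245 stayed unnamed. The part of fibroblast RNA in the Adam12 levels of halo/T cells and macrophages/monocytes was not tested.

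Adam17 and Adam9 were low in every population. Adam17 had means between 6.71 CPM in ciliated cells and 16.6 CPM in endothelial cells. Adam9 had means between 1.18 CPM in ciliated cells and 7.62 CPM in clear/narrow cells, and was above principal cells in 9 of 9 libraries in clear/narrow cells only. For each of the 7 members the ranges of neighbouring populations in the order of means overlapped.

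**Figure D4:**
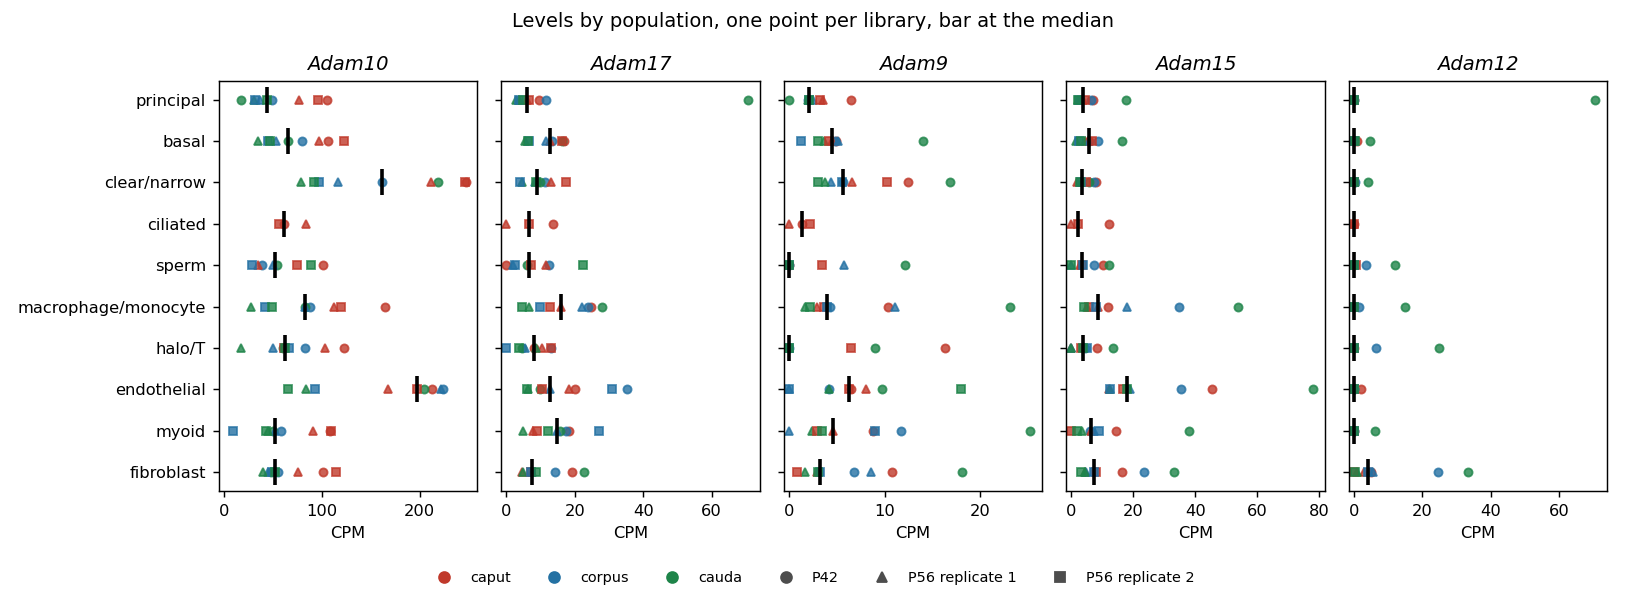
Level of Adam10, Adam15, Adam12, Adam17 and Adam9 in each population, in CPM, with 1 point per library and a bar at the median. Adam10 lies highest in endothelial and clear/narrow cells, with means of 163 CPM, Adam15 in endothelial cells, with 12.1 to 78.0 CPM, and Adam12 in fibroblasts, with up to 33.5 CPM, while the points at 70.6 CPM of Adam12 and Adam17 are the 31 principal cells of the P42 cauda (4 UMIs each).

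The comparison of ages asked how the genes differed between the first wave of sperm at P42 and the adult duct at P56. P42 was 1 library per segment, so the spread behind each SE and p came from the P56 libraries alone (3 residual degrees of freedom), and P42 was assumed to vary like them. The mean of the segments took the 3 libraries of a pool as independent although they come from the same mice, so its SE does not hold the spread between pools.

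Adam7 was higher at P56, by a log2 change of 1.63 ± 0.26 in the corpus (adjusted p = 0.0066, edgeR, 2 P56 pools against 1 P42 pool) and 3.15 ± 0.28 in the cauda (adjusted p = 9.6e-05). In the caput the value was 0.88 ± 0.24 (adjusted p = 0.0811), and the mean of the segments was 1.89 ± 0.15 (adjusted p = 5.48e-05). That call was lost without the first or the second P56 pool (changes of 1.84 and 1.89, adjusted p = 0.206 and 0.12), in fits that took segment and age as additive terms. Both P56 pools were above the P42 pool in each of the 3 segments. Without the P42 cauda library the mean of the remaining segments was 1.22 ± 0.18 (adjusted p = 0.00413).

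Adam12 and Adam15 were lower at P56. The log2 change of Adam12 was -3.20 ± 0.44 in the corpus (adjusted p = 0.0043) and -6.81 ± 0.45 in the cauda (adjusted p = 3.72e-05), and -2.34 ± 0.60 in the caput (adjusted p = 0.0687). That of Adam15 was -1.12 ± 0.19 in the corpus (adjusted p = 0.00913), -2.83 ± 0.18 in the cauda (adjusted p = 3.57e-05) and -0.96 ± 0.19 in the caput (adjusted p = 0.033, under the required change). Without the P42 cauda library the mean change over segments was -2.81 ± 0.45 for Adam12 and -1.08 ± 0.14 for Adam15 (adjusted p = 0.00593 and 0.00309). Without the first or the second P56 pool both calls for the mean were lost, in fits with segment and age as additive terms. The changes were -4.84 and -3.92 for Adam12 (adjusted p = 0.175 and 0.105) and -1.62 and -1.63 for Adam15 (adjusted p = 0.186 and 0.117). With all pools Adam12 was at -4.49 in the additive edgeR fit (adjusted p = 0.00696, still called). With 1 mean per segment and age it was at -4.12, and Adam15 at -1.64. Set against that main fit, the lost calls change both the model and the pools. In the additive fits without a P56 pool edgeR called 0 genes of all tested (4168 and 4781 at an unadjusted p under 0.05), against 3630 by DESeq2 with all pools.

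The makeup of the libraries moved with age as well. Fibroblasts were 7.12%, 14.4% and 31.0% of the P42 caput, corpus and cauda cells, against 2.37% to 3.72%, 4.81% to 5.86% and 7.96% to 10.1% at P56. Macrophages/monocytes were 6.04%, 11.9% and 19.7%, against 2.54% to 5.55%, 3.93% to 4.25% and 3.46% to 6.60%. Principal cells were 40.6%, 11.0% and 0.688%, against 57.7% to 67.4%, 41.5% to 55.9% and 41.8% to 42.5%. With the unnamed clusters whose largest marker class was principal counted as principal, the P42 corpus held 1999 principal cells in place of 470, and the P42 cauda 199 in place of 31. These added cells came almost wholly from clusters with 1 or 2 principal markers up. The part of these shares in the changes over all cells was not tested.

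Adam9, Adam17 and Adam28 were called in the cauda alone, with log2 changes of -1.96 ± 0.24 (adjusted p = 0.000403), -1.22 ± 0.24 (0.00405) and -1.39 ± 0.43 (0.0315). Adam28 rested there on 8.86 CPM in the P42 library against 2.01 and 1.99 CPM, and its caput level differed by 0.59 ± 0.39 (adjusted p = 0.389). Adam10 was not called in any segment, with values of -0.05 ± 0.19, 0.03 ± 0.20 and 0.36 ± 0.20. In all, 0, 3 and 6 of the 7 members were called in caput, corpus and cauda and 3 for the mean of segments, where 3.50%, 10.6%, 32.2% and 19.7% of the 21312 genes tested were called. The difference between ages depended on the segment for 4 of the 7 members over all cells and 2 of the 6 tested in principal cells (13.8% and 5.10% of all genes tested). The 0 of the caput stood beside 3 members at an unadjusted p under 0.05 and 0 called by DESeq2.

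Scaling bears on the sizes. With the normalization factors set to 1, the median over all genes moved from 0.01 to -0.35 in the caput, from 0.04 to -0.59 in the corpus and from -0.06 to -0.82 in the cauda. Under that scaling Adam7 was at 0.99 ± 0.22 in the corpus (adjusted p = 0.0116, under the required change), with the same direction as before. In the caput Adam12 was then called (-2.72 ± 0.60, adjusted p = 0.0272), as it also was with no filter on low counts (adjusted p = 0.0214), and so was Adam15 (-1.33 ± 0.24, adjusted p = 0.0143). In the corpus Adam17 was called (-1.18 ± 0.28, adjusted p = 0.0159), and Adam10 was at -0.61 and -0.40 in the corpus and cauda, with the sign turned and no call.

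**Figure D5:**
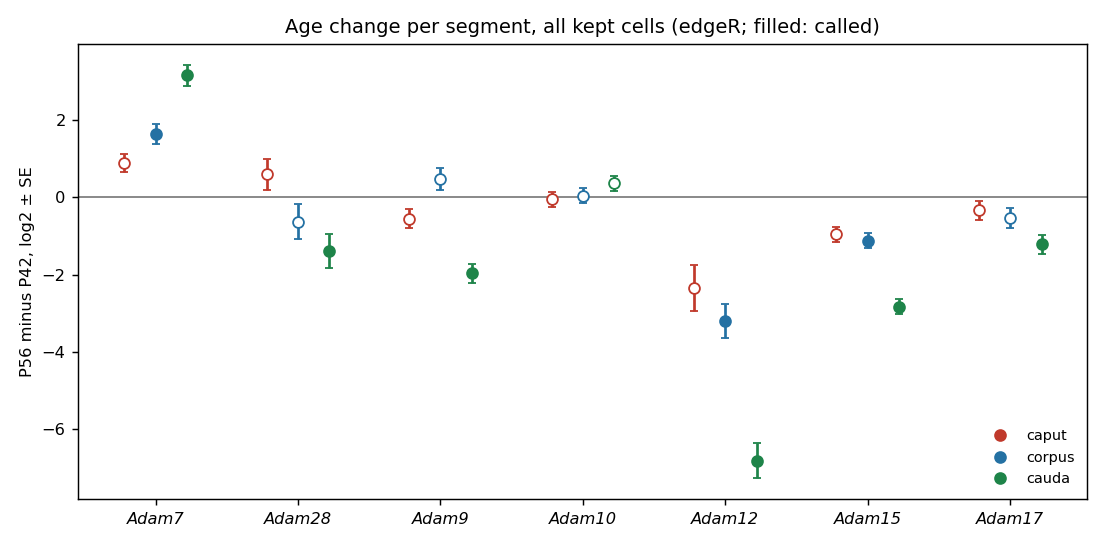
Log2 change from P42 to P56 of each member in the caput, corpus and cauda, over all cells, with its standard error, filled where called. Adam7 is above 0 in the 3 segments, from 0.88 to 3.15, and Adam12 and Adam15 are below 0, down to -6.81 and -2.83 in the cauda.

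In principal cells Adam7 was higher at P56 in the corpus (1797 CPM against 2813 and 2853 CPM, log2 change of 1.30 ± 0.23, adjusted p = 0.0138) and in the cauda (3.07 ± 0.28, adjusted p = 0.000382), and the caput value was 0.48 ± 0.22 (adjusted p = 0.348). In the caput, corpus and cauda 0, 1 and 2 of 6 members were called, against 0.705%, 6.62% and 7.84% of all genes tested (in the caput 1 member was at an unadjusted p under 0.05 and 0 were called by DESeq2). For the mean of segments 3 of 6 were called, Adam7 (1.62 ± 0.14), Adam17 (-1.38 ± 0.34) and Adam28 (-2.49 ± 0.42), where 8.47% of all genes tested were called (adjusted p = 0.000254, 0.0266 and 0.00454). Without the P42 cauda library these were 0.89, -0.66 and -0.68, and none of the 3 was called (adjusted p = 0.0138, under the required change, 0.101 and 0.322). The cauda value compares 31 cells, and the median change over all genes there was 3.66, above that of Adam7. Adam28 was at 0.12 ± 0.44 in caput principal cells (adjusted p = 0.931) and at -1.48 ± 0.71 in the corpus (adjusted p = 0.222), and its cauda value of -6.11 ± 1.01 (adjusted p = 0.00642) rests on the 15 UMIs of those 31 cells. With principal cells gated one by one from their own marker counts, the P42 cauda gave 26 principal cells with 0 UMIs of Adam28, the direction turned and the call was lost (adjusted p = 0.981). At clustering resolution 2 the call was lost too (-5.42 ± 1.49, adjusted p = 0.0757).

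Genes that work with ADAM proteins were counted in principal cells by the same segment test. Of the 5 proprotein convertases, which remove the inhibitory prodomain of ADAM proteases, 2 were called, both highest in the caput, where 37.1% of all genes tested were called and 16.3% were called highest in the caput. Pcsk5 was at 74.6, 60.1 and 61.2 CPM in the caput, 11.2, 3.29 and 0.816 CPM in the corpus and 70.6 (4 UMIs), 0.988 and 1.40 CPM in the cauda, a log2 difference of 4.86 (adjusted p = 1.16e-05). Pcsk6 was at 0.907 CPM ± 0.0575 (SD, n = 3) in the caput and 0.182 CPM ± 0.265 in the corpus (adjusted p = 0.0105). The median difference of the list was 2.67, against 0.90 over all genes.

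Of the iRhoms and tetraspanins that carry Adam17 or Adam10 to the cell surface, listed together with Frmd8, which is neither, 6 of the 7 genes tested were called (9 listed). Of these 4 were highest in the caput and 2 in the corpus, beside the same 37.1% and 16.3% of all genes. Tspan15, a partner of Adam10, was at 35.0, 23.4 and 20.1 CPM in the caput against 5.83, 3.05 and 3.56 CPM in the corpus (log2 difference of 2.60, adjusted p = 2.52e-05), and Rhbdf2, which carries Adam17, at 4.88 CPM ± 2.01 against 0.547 CPM ± 0.370 (3.27, adjusted p = 2.31e-05). Tspan33 and Tspan5 followed with 2.03 and 2.01 (adjusted p = 0.0172 and 0.000124). Tspan5 differed from caput to corpus and not from caput to cauda (-0.24 ± 0.24, adjusted p = 0.492), with 35.3 CPM (2 UMIs) in the P42 cauda against 9.10 to 11.9 CPM in the caput. The 2 highest in the corpus were Rhbdf1 and Tspan17 (1.56 and 1.11, adjusted p = 0.00322 and 0.0181), named after their values were seen. The median of the list was 2.01, against 0.90 over all genes.

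Of the shed substrates 13 of the 25 tested were called (27 listed), with caput highest for 6, corpus for 3 and cauda for 4, and the median difference was 1.37 (37.1% and 0.90 over all genes tested). Sdc1, a membrane proteoglycan, was at 64.5, 34.0 and 36.0 CPM in the caput against 10.2, 3.47 and 1.41 CPM in the corpus (log2 difference of 3.42, adjusted p = 5e-06), and Ace, a membrane peptidase released from the cell surface, at 45.0 CPM ± 8.97 in the caput (3.73, adjusted p = 0.000545). Its ranges overlapped, with 47.1 CPM in the P42 corpus. Btc and Areg, ligands of the epidermal growth factor receptor, went opposite ways, Btc highest in the caput (2.72, adjusted p = 0.0121) and Areg in the cauda (2.72, adjusted p = 0.012), each at few UMIs.

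Of the inhibitors, 1 of the 4 tested was called (5 listed, median 1.19), Timp1, highest in the cauda (log2 difference from the corpus of 1.70, F test adjusted p = 0.00151), where 37.1% of all genes were called. From caput to cauda Timp1 changed by 0.88 ± 0.26 (adjusted p = 0.0202, not called), with 5.31 and 6.04 CPM in the P56 cauda, 53.0 CPM (3 UMIs) in the P42 cauda and 4.27 to 14.1 CPM in the caput. Of Hspa5, Canx and Itm2b, 2 chaperones and a membrane protein known to associate with Adam7 in sperm, 0 of 3 were called between segments (edgeR, median 0.28, 0 at an unadjusted p under 0.05 and 0 by DESeq2). The panel of secreted genes was called in 8 of 8, 7 highest in the caput, with a median of 9.80. Without the P42 cauda library the counts were 2 of 5, 6 of 7, 14 of 25, 1 of 4, 0 of 3 and 8 of 8 in the same order. The 37.1% of all genes belongs to the fit with all libraries, so these counts cannot be set against it.

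Of the 26 other ADAM family genes 11 could be tested in principal cells and 6 were called, with caput highest for 3, corpus for 2 and cauda for 1, and the median difference was 2.56 (37.1% and 0.90 over all genes tested). Adamdec1, the gene between Adam7 and Adam28, was at 3.29, 2.57 and 2.57 CPM in the caput and at most 0.179 CPM elsewhere (log2 difference of 4.95, adjusted p = 6.11e-05), the same direction as Adam28. Adam18 and Adam3, known from the testis, were at 4.75 CPM ± 1.15 and 1.04 CPM ± 0.435 in caput principal cells, and at means of 40.6 and 70.9 CPM in the sperm clusters. Adam23 was highest in the cauda (3.38, adjusted p = 0.00267), with 1 UMI in the P42 library, and had a mean of 39.2 CPM in fibroblasts.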

How the data were processed

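Cells were dissociated from pooled segments and loaded on a GEXSCOPE microfluidic chip. The deposited values were raw UMI counts per gene and barcode, which the authors made by trimming with fastp, barcode extraction and UMI counting with UMI-tools, mapping with STAR 2.7.3a (per the submitters' processing notes, to GRCm38.p6) and assignment of exon reads with featureCounts. Replicate numbers in the labels name pools of mice, and no deposited column belonged to another study.

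Cells with 300 to 4000 detected genes, at most 20000 UMIs and under 50% mitochondrial UMIs were kept, and 1 cluster of 691 globin-rich cells was removed (Python 3.11.15, scanpy 1.11.5). Normalized log counts of 3000 variable genes, centred within each library, were reduced to 50 principal components. No gene with a name starting in Adam was among them. Cells were clustered from 20 neighbours at resolution 1 (leidenalg 0.10.2). Clusters were named from marker lists where at least 3 markers were 2-fold up. A cluster stayed unnamed where a rival class had at least 5 markers up and a share of markers within 0.2 of its own. So did a cluster whose top genes another class led, or a shallow one without a leading marker. Clusters of 426 and 391 cells thus stayed unnamed with 14 principal markers up. Scrublet marked 17 cells (0.0411%) and was taken not to have worked, so doublets remain. Shares of cells used cells thinned to 1000 UMIs.

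UMIs were summed per library and population of at least 10 cells and tested with edgeR 4.0.16 (R 4.3.3; TMM factors, filterByExpr, quasi-likelihood, Benjamini-Hochberg over all genes tested). Genes were called at an adjusted p under 0.05 and a log2 change of at least 1. Segments were fitted with the pool as a block, because a pool gave each of its segments from 1 set of mice, and deviations of same-pool libraries correlated at 0.139 to 0.725 in all 9 pairs (0.0124 to 0.515 in the 6 pairs across the P56 pools, and below 0 between P42 and P56). Ages were fitted with 1 mean per segment and age, and with segment and age as additive terms where a P56 pool was left out. The tests were checked on simulated counts. In principal cells the simulation gave false calls in the segment test with the 31-cell library, which is why values without it are given. The part of that library in the false calls was not tested. Over all cells it missed many of the changes put in from caput to cauda, as it did in principal cells for the age change over the mean of segments, so a gene not called there may still differ.

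The members and gene lists were chosen with earlier results of these data known. Of each list, at most 4 genes were named, those called in principal cells with the largest fitted segment difference, and for Adam7 and Adam28 the 5 most correlated genes over the sums. Other genes of the lists were named to account for a count or after their values were seen. Alternatives were DESeq2 1.42.0, TMM factors set to 1, no filter on low counts, other cell filters, clustering resolutions 0.5 and 2, cells gated one by one, no block and leaving out pools. Alternatives without the P42 cauda library, with the unnamed clusters whose largest marker class was principal counted as principal and with additive age were chosen after seeing the data.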

Additional observations from a re-analysis of the deposited data

Results flagged for a closer look

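The change from P42 to P56 differed between segments for 4 of the 7 members over all cells and for 2 in principal cells (edgeR F test, adjusted), where 13.8% and 5.10% of all genes tested were called. Over all cells the largest and smallest segment changes were 2.26 apart on the log2 scale for Adam7 (adjusted p = 0.0119), which was higher at P56 in every segment and most in the cauda, and 2.43 apart for Adam9 (adjusted p = 0.0125). They were 4.47 apart for Adam12 (adjusted p = 0.0159) and 1.87 apart for Adam15 (adjusted p = 0.0081), both lower at P56 in every segment and most in the cauda. In principal cells they were 2.59 apart for Adam7 (adjusted p = 0.0127; the call was lost with cells gated one by one and with TMM factors set to 1, adjusted p = 0.118 and 0.0649) and 6.23 apart for Adam28 (adjusted p = 0.0289), a call that was lost with cells gated one by one (adjusted p = 0.385) and at clustering resolution 2 (adjusted p = 0.136). The median distance over all genes tested was 1.15 over all cells and 5.17 in principal cells. Each of these 6 results has its largest change in the cauda, where P42 is the 1 library with 31 principal cells, 1394 fibroblasts and 37.0% unnamed cells, and the part of that composition in the differences was not tested.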

How the results depend on the processing

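Adam28 kept its call between segments under every alternative run, over all cells and in principal cells. Over the members' tests given in the text, 650 alternatives kept direction and side of the threshold, 42 came to pass it, 33 no longer passed it and 13 changed sign: with TMM factors set to 1, Adam28 in caput principal cells by age (-0.18), Adam9 in the corpus by age (-0.17) and the mean age change of Adam10 (-0.48, and -0.047 without the P42 cauda library, with a range of -0.05 to 0.16 over the libraries or pools left out), Adam10 by age in the corpus (-0.61, -0.0039 with no filter and -0.11 with stricter cell filters), in the cauda (-0.40) and, by DESeq2, in the caput (0.0029), Adam28 between corpus and cauda (-0.59 to 0.33 over the libraries or pools left out), and, with principal cells gated one by one, Adam28 in the cauda by age (6.86, 0 UMIs at P42) and the mean age changes of Adam17 (2.39) and Adam28 (2.00). The cause was not tested. The F tests give a difference without a sign. For segments a change of direction was counted only where both results were called and the highest segment differed, and for age by segment it could not be counted. The highest segment of Adam12 over all cells, cauda with all libraries and corpus without the P42 cauda, is thus not among the 13. Of the mean levels of a population over its libraries, 418 kept within 1 SD of those libraries and 2 moved. These were Adam28 in basal cells, to 765 CPM at resolution 0.5 (277 CPM as reported), and Adam7 in clear/narrow cells, to 2155 CPM when gated (1341 CPM). That SD holds the differences between segments and ages, so it is a wide limit. Shares rise with the UMIs kept: at 2000 UMIs or unthinned, Adam7 was in 99.9% or 99.96% of caput and 95.3% or 98.0% of corpus principal cells, Adam28 in 82.7% or 94.8% of caput and, unthinned, 2.17% of corpus cells.

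Without the replicate block 3359 genes were called between segments over all cells and 5264 in principal cells (4831 and 5918 with it), and no call of Adam28 or Adam10 was lost. Leaving out 1 pool gave 613 to 7441 and 2873 to 6598 genes, and for pairs of segments in principal cells 2181 to 4784 (corpus and caput), 683 to 2635 (cauda and corpus) and 1979 to 5082 (cauda and caput). For the mean age change over all cells, 0 genes were called by edgeR with either P56 pool left out and additive age (4168 and 4781 at an unadjusted p under 0.05, while DESeq2 with all pools called 3630). The main fit called 4200, and 2224 were called without the P42 cauda library. In principal cells the count of 1466 became 359 to 584 without a P56 pool and with additive age, 774 without that library, 365 with additive age and all pools, and 411 when gated. By segment, TMM factors set to 1 gave 1555 (caput) and 3916 (corpus) genes over all cells and 309, 2177 and 726 in principal cells (caput, corpus, cauda), and no filter 1838 in all and 631 in principal cells of the caput and 1983 in corpus principal cells. DESeq2 and the unnamed clusters as principal cells each gave 737 in the corpus, and gating gave 152 there. For the cauda, gating gave 425, the unnamed clusters 3906 and resolution 0.5 2593. Age changes per segment without a P56 pool were not run, since each group then holds 1 library. Depth limits Adam9, Adam12, Adam15 and Adam17, whose counts per library and population were often under 10 UMIs.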

Other observations

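Of the 26 other ADAM family genes, 19 had their highest mean level in the sperm clusters, with means over 8 libraries of 101 CPM for Adam5, 70.9 CPM for Adam3, 62.3 CPM for Adam2, 58.8 CPM for Adam32 and 40.6 CPM for Adam18, and of 0.637 to 15.0 CPM for the other 14. Adam2 was the exception in range, with a mean of 14.4 CPM in principal cells and 14.9 CPM in clear/narrow cells, where the other 4 were at or under 1.81 CPM. These 5 genes were picked after their values were seen.

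The tissue inhibitors of metalloproteases also block several ADAM proteases. Timp1 and Timp2 had their highest mean in fibroblasts (56.5 and 517 CPM), Timp3 and Timp4 in endothelial cells (105 and 3.08 CPM) and Reck, a membrane-bound inhibitor, in myoid cells (7.76 CPM). Of the 5 inhibitors, 4 were called lower at P56 over all cells for the mean of segments (median log2 change of -1.84, against 0.02 over all genes tested and 13.7% called lower). Fibroblasts were 7.12% to 31.0% of the cells of the P42 libraries and 2.37% to 10.1% of those of P56, and their part in these calls was not tested. Without either P56 pool, and with additive age, edgeR called 0 genes for that mean (4168 and 4781 at an unadjusted p under 0.05), against 3630 by DESeq2 with all pools.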
